A study of Homo sapiens with 6 samples.

Results

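SWI/SNF complexes are chromatin remodellers that use ATP to slide or evict nucleosomes, and so open promoters and enhancers to transcription factors. A mammalian complex holds a single ATPase, scaffold subunits and one of several sets of targeting subunits, which define canonical BAF, PBAF (with ARID2 and PBRM1) and GBAF (with BRD9 and BICRA or BICRAL). Not every scaffold subunit need be in every form. Many subunits are encoded by paralogous genes, of which a complex takes only a single member, and subunits such as ARID1A are among the chromatin regulators most often mutated in human cancer, anaplastic thyroid carcinoma included.

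Messenger RNA levels of 30 genes that encode SWI/SNF subunits were described here, of 33539 genes with values in all. The genes were chosen by name as known subunits, with no threshold on any measured value, but the family was selected on siPOLR1F against NC differences of these same libraries that were already known. The fold changes and adjusted p-values below are therefore a description of these genes and give no independent support to a statement about the family. All 29 members with values carried at least 1 SWI/SNF, RSC-type, BAF, GBAF or brahma complex term in the deposited annotation. The other genes with any of these terms were ACTB, RB1 and, with the RSC-type term alone, ASH1L. ACTL6B, a neuronal actin-like subunit, was not analysed here. Of the 29, 27 passed the expression filter (a mean of at least 0.5 FPKM over all libraries, FPKM being fragments relative to transcript length and to the fragments mapped in the library), and DPF3 and BCL11B did not.

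The cells were 8505C, a cell line from an anaplastic carcinoma of the thyroid, in which thyroid features are largely lost. They received an siRNA against POLR1F, a subunit of RNA polymerase I (siPOLR1F, 3 libraries), or a negative control siRNA (NC, 3 libraries), and poly(A) RNA was sequenced after 24 h. POLR1F itself was at 1.67 ± 0.368 FPKM in siPOLR1F and 8.28 ± 0.592 FPKM in NC (SD, n = 3 each). All groups are this 1 line, the labels give neither the siRNA sequences nor their number, and they do not say that libraries of a group were separate cultures. If they were not, the p-values measure technical spread only.

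Library totals lay between 60576788 and 63038378 counts. Mitochondrially encoded genes took 4.32% to 4.85% of counts in siPOLR1F and 4.93% to 5.15% in NC libraries. Of the thyroid markers, the lineage factor NKX2-1 was at 27.5 FPKM in siPOLR1F and 45.2 FPKM in NC, while TG (thyroglobulin) and TSHR were below 0.01 FPKM in the mean of each group, so the line carries its label with few thyroid genes. The 6 thyroid markers with values summed to 26.6 to 29.8 FPKM in siPOLR1F and 42.9 to 47.6 FPKM in NC, mostly NKX2-1. PAX8 was at 0.491 FPKM in siPOLR1F and 0.543 FPKM in NC (adjusted p = 0.872 by edgeR), and FOXE1 at 0.201 and 0.209 FPKM. The summed level of 3 endothelial markers was 2.36 to 4.80 FPKM in siPOLR1F and 5.62 to 6.75 FPKM in NC, with CDH5 the most abundant in each library (2.72 FPKM in siPOLR1F and 5.65 FPKM in NC, a called fall). The fall was that of CDH5 alone. PECAM1 (0.413 FPKM in siPOLR1F and 0.292 FPKM in NC) and VWF (0.441 and 0.198 FPKM) had overlapping groups and were below the expression filter. Leukocyte markers summed to 12.0 to 18.5 FPKM in siPOLR1F and 9.73 to 14.5 FPKM in NC, mostly CD68, with PTPRC at 0.00302 FPKM in siPOLR1F and 0.00327 FPKM in NC. Fibroblast markers summed to 1.03 to 1.19 FPKM in siPOLR1F and 1.2 to 1.61 FPKM in NC. Epithelial markers summed to 226 to 256 FPKM in siPOLR1F and 266 to 298 FPKM in NC, and mesenchymal markers to 721 to 747 FPKM in siPOLR1F and 704 to 765 FPKM in NC. KRT8 (97.95 FPKM in siPOLR1F and 117 FPKM in NC) and FN1 (38.3 FPKM in siPOLR1F and 52.2 FPKM in NC) were called lower. Both calls were lost in some alternative, with an adjusted p of up to 0.11 for KRT8 and 0.0727 for FN1. KRT18, at 146.3 FPKM in siPOLR1F and 161.8 FPKM in NC, did not pass (adjusted p = 0.195 by edgeR). CDH1 was at 0.0356 FPKM in siPOLR1F and 0.0285 FPKM in NC, and VIM at 674 FPKM in siPOLR1F and 671 FPKM in NC. The part of these markers in the subunit values was not tested. In such bulk RNA, fewer cells that express a gene and less RNA per cell cannot be told apart.

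Of the 27 subunit genes tested, 8 were higher in siPOLR1F than in NC at an adjusted p below 0.05 (edgeR, quasi-likelihood test), and none of the 27 was lower. BCL7A, BICRA and BCL7B stood at 1.95, 1.85 and 1.71 times their NC level, and SMARCC1, SMARCE1, SMARCA4, SMARCD1 and BRD9 at 1.15 to 1.33 times. The other 19 did not pass. Over all 13564 genes tested, 10.3% were higher and 6.94% lower by the same rule. Upper-quartile scaling turned the balance over all genes, with 1114 higher and 1475 lower, while 7 subunits were higher and 0 lower. Because the family was picked with this contrast known, nothing is read from the gap between 8 of 27 and that share. At an unadjusted p below 0.05, edgeR had 12 members higher and 0 lower, DESeq2 13 and 0, and limma 10 and 0. No count over all genes is given at the unadjusted threshold, so nothing is read from unadjusted counts, here or in later paragraphs. At an adjusted p below 0.05, DESeq2 called 10 higher and 0 lower, beside 1781 and 1345 of all genes tested. By the same threshold limma on log2(FPKM + 1) called 7 and 0, beside 1194 and 883 of all genes.

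The median log2 fold change of the 27 was 0.13, beside -0.01 over all genes tested, and 22 of 27 (81.5%) had a value above 0, beside 47.5% of all genes tested. In 15 members every siPOLR1F library lay above every NC library in FPKM, and in 0 every siPOLR1F library lay below. Of all genes tested, 18.9% lay wholly above and 19% wholly below. The summed FPKM of all members was 248.8, 252.6 and 259.2 in the siPOLR1F libraries, against 216.5, 227.4 and 222.8 in the NC libraries, and the groups did not overlap. The count of 8 depended on the libraries used: without siPOLR1F replicate 3 it was 5.

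**Figure D1:**
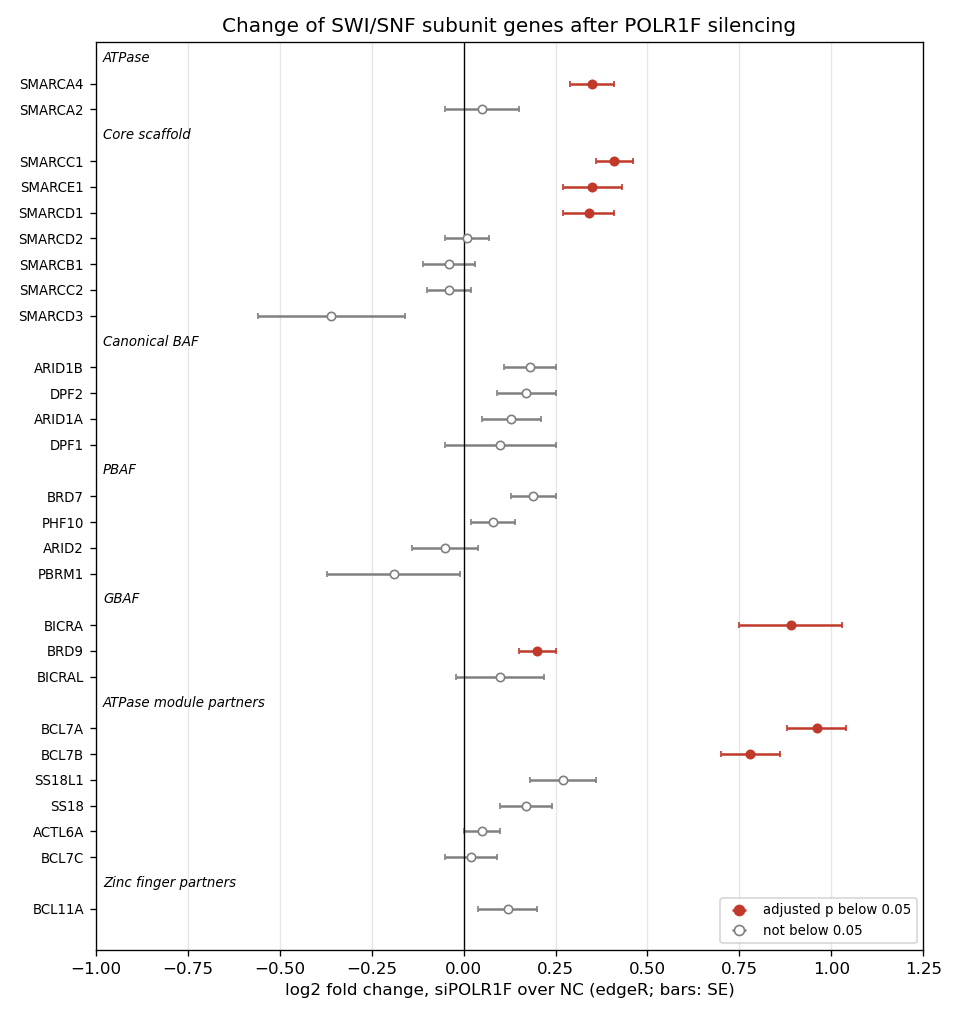
Log2 fold change (siPOLR1F over NC, edgeR, x axis) of the 27 tested subunit genes, grouped by role, with bars of 1 SE. Filled points passed the test at an adjusted p below 0.05. BCL7A (0.96), BICRA (0.89) and BCL7B (0.78) lie farthest to the right, and SMARCD3 (-0.36) and PBRM1 (-0.19), both with wide bars, farthest to the left.

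The sequences below belong to the genes with the largest differences. The promoters of the BCL7 paralogues are shown because BCL7A and BCL7B were called higher and BCL7C was not. Each runs from 250 bases before to 50 bases after the RefSeq gene start (GRCh38.p14), 5′ to 3′ on the gene's strand. Capitals mark a match to the ETS-type motif CCGGAAG on either strand. The BCL7A promoter lies at chr12:122021634-122021933 (plus strand). The BCL7B promoter lies at chr7:73557187-73557486 (minus strand) and the BCL7C promoter at chr16:30894028-30894327 (minus strand). In the deposited table each of the 3 genes begins upstream of its RefSeq start.
BCL7A: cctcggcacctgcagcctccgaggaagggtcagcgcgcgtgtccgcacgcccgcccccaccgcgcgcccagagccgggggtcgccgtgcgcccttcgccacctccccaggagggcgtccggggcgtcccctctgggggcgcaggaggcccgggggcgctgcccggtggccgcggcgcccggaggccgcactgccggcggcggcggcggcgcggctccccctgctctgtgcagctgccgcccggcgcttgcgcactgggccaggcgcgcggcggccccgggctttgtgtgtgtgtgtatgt
BCL7B: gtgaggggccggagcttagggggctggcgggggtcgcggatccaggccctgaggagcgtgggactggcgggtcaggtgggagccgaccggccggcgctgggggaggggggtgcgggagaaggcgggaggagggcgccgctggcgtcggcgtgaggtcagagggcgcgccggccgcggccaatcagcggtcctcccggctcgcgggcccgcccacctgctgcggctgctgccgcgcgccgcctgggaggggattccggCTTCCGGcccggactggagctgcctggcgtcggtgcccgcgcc
BCL7C: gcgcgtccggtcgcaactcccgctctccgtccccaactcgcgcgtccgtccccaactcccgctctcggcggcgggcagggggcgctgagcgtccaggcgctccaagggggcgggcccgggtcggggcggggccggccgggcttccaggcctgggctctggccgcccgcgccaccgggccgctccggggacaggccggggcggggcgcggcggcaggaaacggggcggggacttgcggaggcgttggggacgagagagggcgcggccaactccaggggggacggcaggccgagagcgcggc

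All 3 promoters were rich in G and C, at 80.3% in BCL7A, 79.0% in BCL7B and 80.3% in BCL7C, beside a median of 68.7% for the tested members and 65.7% for all tested genes in the promoter table. Motifs were searched on both strands, and matches of different motifs were allowed to overlap. The ETS-type motif CCGGAAG was in 2 of 23 promoters of tested members (8.70%), BCL7B and SMARCA2, and in 20.6% of 9623 promoters of tested genes. The E-box CACGTG was in 1 of 23 (4.35%), PBRM1, beside 10.5% of all. AAGATGGC, the core of the YY1 motif, was in 2 of 23 (8.70%), DPF2 and SMARCD1, beside 5.76%, and GCGCATGC, part of the NRF1 motif, in 0 of 23 beside 5.82%. BCL7A, BCL7C and BICRA held none of the 4 in this window. These matches describe letters and not binding.

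Transcripts were also searched for the heptamers TCGGAGA and CCGACTT. Both had been taken up from an earlier search for 3′ UTR heptamers that went with the fold changes of this contrast, so a match is not independent of the contrast. TCGGAGA was in the 3′ UTR of 1 of 27 members (3.70%), BICRA, beside 2.18% of 11151 tested genes searched, and in the coding sequence of 3 (11.1%), BCL11A, SMARCA2 and SMARCE1, beside 8.10% of 11252. CCGACTT was in the 3′ UTR of BCL11A alone (3.70% of members, beside 1.99%) and in the coding sequence of BCL7B and BICRA (7.41%, beside 4.99%). The windows in genes called higher are printed with the heptamer in capitals, from GENCODE release 29 transcripts, with GRCh38 positions. Each window lies within a single exon.
BICRA, 3′ UTR, chr19:47703133-47703161, plus strand: attttgaaatcTCGGAGAcaaaactagta
BICRA, coding sequence, chr19:47694531-47694559, plus strand: ccctacgccatCCGACTTccagctccagt
BCL7B, coding sequence, chr7:73539921-73539949, minus strand: agcacacacctCCGACTTccgcacggatg
SMARCE1, coding sequence, chr17:40628839-40628867, minus strand: gtaacactggcTCGGAGAgcaacagtgca
BCL7A, SMARCC1, SMARCA4, SMARCD1 and BRD9, which were also called higher, held neither heptamer in the regions searched. The part of such sites in the subunit values was not tested.

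The motor of the complex is either SMARCA4 (BRG1) or SMARCA2 (BRM), and only SMARCA4 passed the test. SMARCA4 (ENSG00000127616, GRCh38 chromosome 19, 10960932 to 11079426, plus strand) was at 14.3, 14.9 and 14.5 FPKM in the siPOLR1F libraries, against 10.4, 12.4 and 11.6 FPKM in the NC libraries. The groups did not overlap, and the log2 fold change was 0.35 (SE 0.06; adjusted p = 0.00843 by edgeR). SMARCA2 (ENSG00000080503, chromosome 9) was at 2.29, 2.07 and 1.86 FPKM in siPOLR1F and 2.19, 1.85 and 1.98 FPKM in NC, with overlapping groups and a log2 fold change of 0.05 (SE 0.10). SMARCA4 made up 86.2%, 87.8% and 88.6% of the FPKM of the pair in siPOLR1F, against 82.7%, 87.0% and 85.4% in NC, so the share overlapped between groups. The difference between the fold changes of both ATPase genes was not tested.

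Of the 7 scaffold genes, 3 rose, 0 fell and 4 did not pass, beside 10.3% higher and 6.94% lower of all genes tested. The median log2 fold change of the 7 was 0.01, beside -0.01 over all genes tested. At an unadjusted p below 0.05 none of the 7 was lower by edgeR, DESeq2 or limma. SMARCC1 (BAF155, ENSG00000173473, chromosome 3, 47585269 to 47782106, minus strand) forms the dimer on which the complex is assembled. It was at 31.5, 31.99 and 33.1 FPKM in siPOLR1F, against 24.1, 24.9 and 24.0 FPKM in NC. The spread within each group was small beside the gap, with a log2 fold change of 0.41 (SE 0.05; adjusted p = 0.00106 by edgeR).

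SMARCC2 (BAF170), the paralogue that can take the place of SMARCC1 in that dimer, was at 9.58, 10.7 and 10.3 FPKM in siPOLR1F and 10.8, 10.0 and 10.7 FPKM in NC. Its log2 fold change was -0.04 (SE 0.06) and the groups overlapped. SMARCC2 shares 612 bases with MYL6, which lies on the other strand at 53.0 FPKM in siPOLR1F and 54.1 FPKM in NC. SMARCC1 accounted for 76.7%, 74.9% and 76.3% of the FPKM of the pair in siPOLR1F, against 69.1%, 71.3% and 69.1% in NC, without overlap.

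SMARCD1 (BAF60A, ENSG00000066117, chromosome 12, 50085200 to 50100707, plus strand), which links the complex to transcription factors, was at 18.5, 21.5 and 21.3 FPKM in siPOLR1F, against 15.5, 16.8 and 16.3 FPKM in NC. All siPOLR1F libraries were above the NC libraries, replicate 1 by the least, and the log2 fold change was 0.34 (SE 0.07; adjusted p = 0.0125 by edgeR). The call ended without siPOLR1F replicate 2 (adjusted p = 0.0501) or replicate 3 (0.0530) and without the expression filter (0.0590), within 1.18e-04 to 0.0590 over its alternatives. Its paralogue SMARCD2 (BAF60B) was at 14.7, 16.4 and 16.2 FPKM in siPOLR1F and 14.99, 15.6 and 16.6 FPKM in NC, a log2 fold change of 0.01 (SE 0.06). SMARCD3 (BAF60C), which is known for its part in heart and muscle, was low at 0.734, 0.941 and 0.660 FPKM in siPOLR1F and 1.19, 0.779 and 1.06 FPKM in NC, with a log2 fold change of -0.36 (SE 0.20; adjusted p = 0.258 by edgeR). SMARCD3 overlaps CHPF2 by 2216 bases on the other strand, and without a stated strand setting reads of the overlap may be assigned to either gene. Within the trio, SMARCD1 took 54.5%, 55.3% and 55.9% of FPKM in siPOLR1F, against 48.9%, 50.6% and 48.1% in NC.

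SMARCE1 (BAF57, ENSG00000073584, chromosome 17, 40624962 to 40648654, minus strand), a subunit with an HMG-type DNA-binding domain, was at 4.57, 4.14 and 4.597 FPKM in siPOLR1F, against 3.86, 3.33 and 3.27 FPKM in NC. The nearest libraries, siPOLR1F replicate 2 and NC replicate 1, were 4.14 and 3.86. Its log2 fold change was 0.35 (SE 0.08; adjusted p = 0.0221 by edgeR). The call ended without the expression filter and without siPOLR1F replicate 1 (0.0745) or 3 (0.0807) or NC replicate 2 (0.0549) or 3 (0.0684), within 6.88e-04 to 0.0807 over its alternatives. Rows for 5 SMARCE1 pseudogenes were at 0.163 FPKM or less in both groups. SMARCB1 (SNF5), which grips the nucleosome and is lost in rhabdoid tumours, was at 3.49, 3.85 and 4.03 FPKM in siPOLR1F and 3.93, 3.90 and 3.95 FPKM in NC. Its log2 fold change was -0.04 (SE 0.07), and the siPOLR1F libraries spanned both sides of the NC values.

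**Figure D2:**
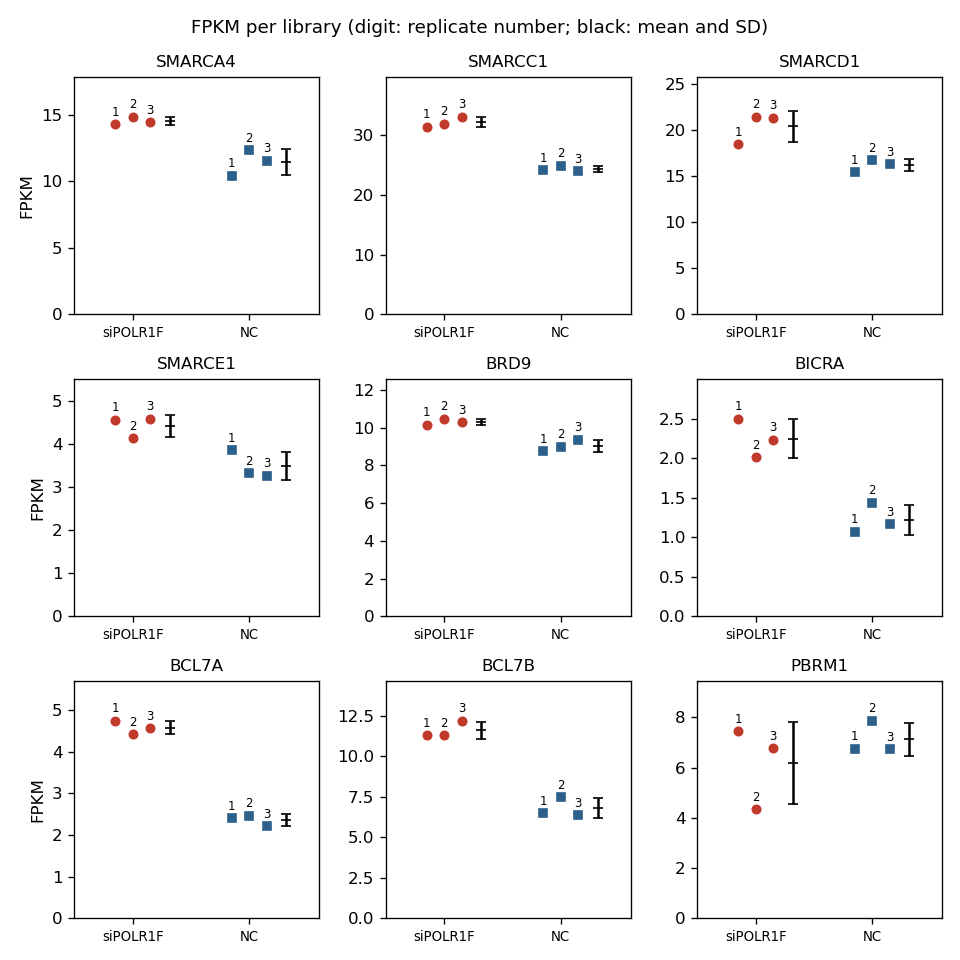
FPKM (y axis, from 0) of the 8 subunit genes called higher and of PBRM1 in each library; circles are siPOLR1F, squares are NC, digits are replicate numbers and black marks are the mean with SD. In the 8 called genes every siPOLR1F library lies above every NC library, whereas PBRM1 siPOLR1F replicate 2 (4.35 FPKM) lies apart from the other 5 libraries.

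None of the subunits specific to canonical BAF or to PBAF passed the edgeR test, which called 10.3% of all genes tested higher and 6.94% lower. ARID1A (ENSG00000117713, chromosome 1), the large DNA-binding subunit of canonical BAF, was at 9.07, 9.599 and 9.88 FPKM in siPOLR1F and 7.69, 9.41 and 9.21 FPKM in NC. NC replicate 1 was the lowest library, the groups overlapped, and the log2 fold change was 0.13 (SE 0.08; adjusted p = 0.301 by edgeR). Its paralogue ARID1B was at 1.59, 1.67 and 1.77 FPKM in siPOLR1F and 1.54, 1.53 and 1.40 FPKM in NC, without overlap (log2 fold change 0.18, SE 0.07; adjusted p = 0.0960 by edgeR). ARID1A held 84.8% to 85.2% of the pair's FPKM in siPOLR1F and 83.3% to 86.8% in NC.

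DPF2 (BAF45D), whose PHD fingers read histone H3 tails, was at 10.3, 10.3 and 10.3 FPKM in siPOLR1F and 8.02, 9.36 and 10.1 FPKM in NC, a log2 fold change of 0.17 (SE 0.08). DPF1, known from neurons, was at 1.34 FPKM in siPOLR1F and 1.26 FPKM in NC (log2 fold change 0.10, SE 0.15). DPF3 was near the floor, with 74, 103 and 63 counts in siPOLR1F and 106, 100 and 72 counts in NC. At an unadjusted p below 0.05 edgeR had 1 of the 4 tested canonical BAF genes higher and 0 lower, DESeq2 had 2 and 0, and limma had 0 and 0. Neither DESeq2 nor limma called any of them at an adjusted p below 0.05.

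Of the PBAF subunits, BRD7, which binds acetylated histones through a bromodomain, was at 10.2, 9.91 and 10.1 FPKM in siPOLR1F, against 9.28, 8.93 and 8.33 FPKM in NC. The groups did not overlap, and the log2 fold change of 0.19 (SE 0.06) had an edgeR adjusted p of 0.0603. DESeq2 (0.0312) and edgeR without NC replicate 1 (0.0442) called it, within 0.0312 to 0.169 over its alternatives. PHF10 (BAF45A) was at 7.34, 7.20 and 7.48 FPKM in siPOLR1F and 6.88, 6.89 and 7.13 FPKM in NC, a log2 fold change of 0.08 (SE 0.06). PHF10 shares 2459 bases with C6orf120, which lies on the other strand at 21.2 FPKM in siPOLR1F and 21.1 FPKM in NC. ARID2 (BAF200), the PBAF counterpart of ARID1A, was at 2.18, 1.86 and 1.95 FPKM in siPOLR1F and 2.15, 2.13 and 1.94 FPKM in NC (log2 fold change -0.05, SE 0.09). At an unadjusted p below 0.05, 1 of the 4 PBAF genes was higher and 0 were lower by each of edgeR, DESeq2 and limma.

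PBRM1 (BAF180, ENSG00000163939, chromosome 3, 52545352 to 52685850, minus strand), a protein with several bromodomains whose gene is often mutated in clear cell kidney cancer, differed among the siPOLR1F libraries. It was at 7.44, 4.35 and 6.77 FPKM (4983, 2962 and 4542 counts) in siPOLR1F and 6.75, 7.86 and 6.74 FPKM (4596, 5137 and 4528 counts) in NC. Replicate 2 of siPOLR1F was the lowest of the 6 libraries and the other siPOLR1F libraries lay inside the NC range. The log2 fold change was -0.19 (SE 0.18; adjusted p = 0.483 by edgeR) and became 0.01 without siPOLR1F replicate 2. GNL3, which overlaps PBRM1 by 4695 bases on the other strand, was at 68.8 FPKM in siPOLR1F and 59.3 FPKM in NC (log2 fold change 0.22; adjusted p = 0.0446 by edgeR), and its part in the PBRM1 counts was not tested.

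In GBAF, 2 of 3 subunit genes were called higher and 0 lower, beside 10.3% and 6.94% of all genes tested. Nothing is read from a count over so few genes of a family picked on this contrast. BICRA (GLTSCR1, ENSG00000063169, chromosome 19, 47608196 to 47703277, plus strand), a scaffold found in GBAF and not in BAF or PBAF, was at 2.50, 2.01 and 2.23 FPKM (1299, 1061 and 1163 counts) in siPOLR1F, against 1.07, 1.44 and 1.16 FPKM (566, 728 and 607 counts) in NC. The lowest siPOLR1F library was above the highest NC library, and the log2 fold change was 0.89 (SE 0.14; adjusted p = 0.00423 by edgeR). A second annotated gene, ENSG00000268746, shares 95082 bases of this interval on the same strand, at 0.181 FPKM in siPOLR1F and 0.407 FPKM in NC, and how shared reads were divided is not stated. TCGGAGA is in the 3′ UTR of BICRA and CCGACTT in its coding sequence. Both heptamers came from an earlier search on this same contrast, and their part in the level of BICRA was not tested. Its paralogue BICRAL (GLTSCR1L) was at 2.66, 2.38 and 2.03 FPKM in siPOLR1F and 2.35, 2.07 and 2.22 FPKM in NC, with overlap and a log2 fold change of 0.10 (SE 0.12). BICRA took 48.4%, 45.7% and 52.4% of the FPKM of the pair in siPOLR1F, against 31.3%, 41.0% and 34.4% in NC, so that the pair was near parity in siPOLR1F and BICRAL was the more abundant in each NC library.

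BRD9 (ENSG00000028310, chromosome 5, 850291 to 892800, minus strand), the GBAF bromodomain protein, was at 10.2, 10.5 and 10.3 FPKM in siPOLR1F, against 8.77, 8.99 and 9.38 FPKM in NC. The groups did not overlap, though its log2 fold change of 0.20 was the smallest of the 8 called genes (SE 0.05; adjusted p = 0.0319 by edgeR). This call held in 7 of 17 alternatives, ended when any of the 6 libraries was left out, and had an adjusted p of 0.00916 to 0.104 over them.

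The BCL7 proteins are small subunits that attach to the ATPase and are found in each form of the complex. BCL7A (ENSG00000110987, chromosome 12, 122019422 to 122062044, plus strand), first known from a translocation in a B-cell lymphoma, was at 4.74, 4.42 and 4.56 FPKM (2158, 2042 and 2079 counts) in siPOLR1F, against 2.40, 2.46 and 2.20 FPKM (1112, 1093 and 1007 counts) in NC. Libraries of a group lay close together and far from the other group, with a log2 fold change of 0.96 (SE 0.08; adjusted p = 2.30e-04 by edgeR). BCL7B (ENSG00000106635, chromosome 7, 73536356 to 73557687, minus strand), in the interval deleted in Williams syndrome, was at 11.3, 11.3 and 12.2 FPKM (2531, 2572 and 2733 counts) in siPOLR1F, against 6.495, 7.49 and 6.38 FPKM (1485, 1641 and 1435 counts) in NC. Again no libraries overlapped, and the log2 fold change was 0.78 (SE 0.08; adjusted p = 7.66e-04 by edgeR).

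BCL7C (ENSG00000099385, chromosome 16, 30833626 to 30894302, minus strand) was at 9.52, 10.8 and 10.2 FPKM in siPOLR1F and 9.598, 10.2 and 10.5 FPKM in NC, a log2 fold change of 0.02 (SE 0.07). The make-up of the trio therefore differed between groups. BCL7C took 37.3%, 40.7% and 37.9% of its FPKM in siPOLR1F, against 51.9%, 50.6% and 55.1% in NC. BCL7B took 44.2%, 42.6% and 45.2% in siPOLR1F, against 35.1%, 37.2% and 33.4% in NC, and was the most abundant BCL7 gene in each siPOLR1F library, whereas BCL7C was in each NC library.

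**Figure D3:**
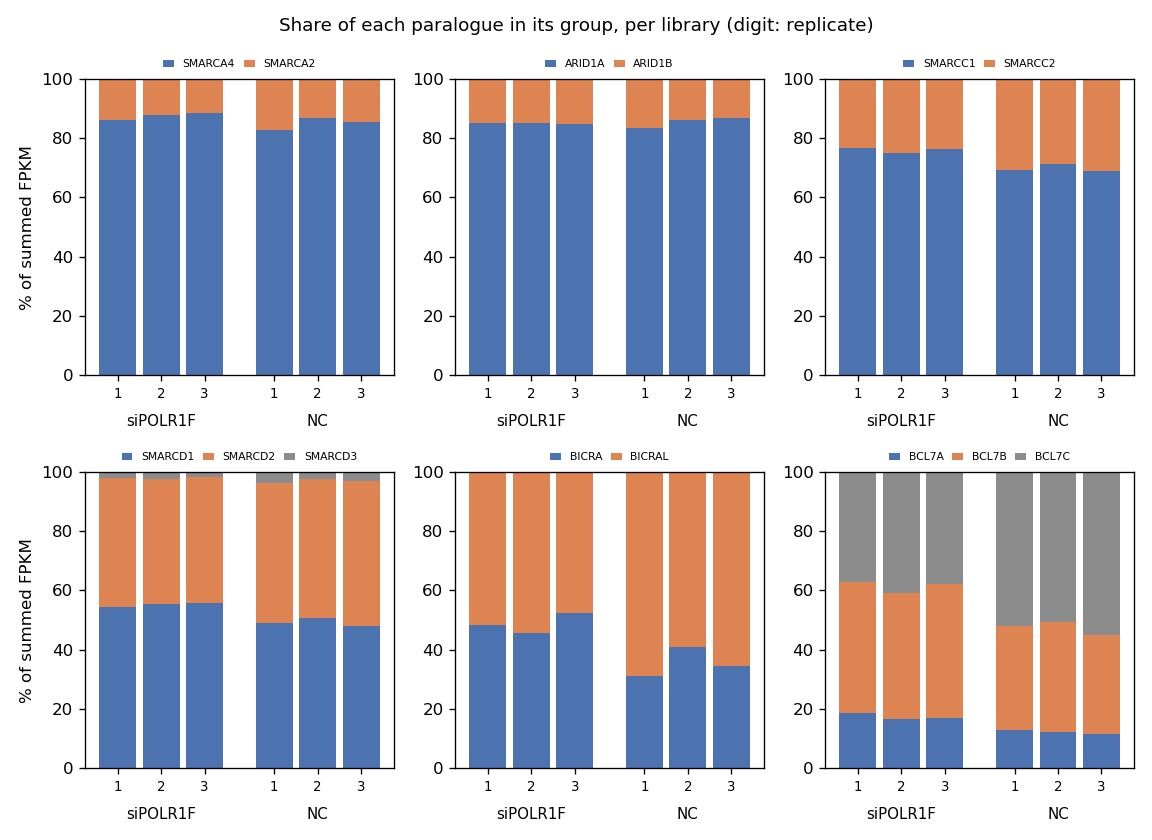
Share of each paralogue in the summed FPKM of its group (y axis, %), in 1 bar per library, with siPOLR1F on the left and NC on the right of each panel. BCL7C stands at 37.3% to 40.7% in siPOLR1F, against 50.6% to 55.1% in NC, and BICRA stands at 45.7% to 52.4% in siPOLR1F, against 31.3% to 41.0% in NC; the shares of SMARCA4 and ARID1A overlap between groups.

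The other partners of the ATPase module did not pass. ACTL6A (BAF53A), the actin-like subunit of dividing cells, was at 41.8, 40.7 and 42.2 FPKM in siPOLR1F and 40.1, 40.7 and 40.3 FPKM in NC, with a log2 fold change of 0.05 (SE 0.05). ACTL6A shares 123 bases with MRPL47, which lies on the other strand at 47.5 FPKM in siPOLR1F and 40.8 FPKM in NC. SS18, the partner in the fusion of synovial sarcoma, was at 10.7, 10.8 and 11.9 FPKM in siPOLR1F and 9.84, 10.6 and 9.34 FPKM in NC (log2 fold change 0.17, SE 0.07; adjusted p = 0.134 by edgeR). SS18L1 (CREST) was at 5.55, 6.04 and 6.20 FPKM in siPOLR1F and 4.41, 5.44 and 4.96 FPKM in NC. The SS18L1 groups lay just apart, and its log2 fold change of 0.27 (SE 0.09) had an edgeR adjusted p of 0.0693. It passed with DESeq2 (0.0329), among genes at 5 FPKM or more on average (0.0447), with the replicate number as a block (0.0397) and without NC replicate 2 (0.0390), within 0.0329 to 0.199 over its alternatives. The zinc finger partner BCL11A, best known as a repressor of fetal globin, was at 0.803 FPKM in siPOLR1F and 0.739 FPKM in NC (log2 fold change 0.12, SE 0.08). BCL11B, a T-cell factor, had 102, 106 and 77 counts in siPOLR1F and 56, 84 and 87 counts in NC.

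Levels of the subunits spanned a wide range in NC. The highest means in NC were those of ACTL6A (40.4 ± 0.267 FPKM), SMARCC1 (24.4 ± 0.513), SMARCD1 (16.2 ± 0.653), SMARCD2 (15.7 ± 0.786) and SMARCA4 (11.5 ± 0.970; SD, n = 3 each). SMARCD1 and SMARCD2 overlapped in NC. From SMARCA4, the fifth, down to BCL7B at rank 15, each gene's range in NC overlapped that of the next, so neighbours in this order did not differ beyond their spread, although its ends did (10.4 to 12.4 FPKM for SMARCA4 and 6.38 to 7.49 FPKM for BCL7B, over the NC libraries). BCL11A (0.739 ± 0.0183), BCL11B (0.128 ± 0.0310) and DPF3 (0.0738 ± 0.0146) were the lowest and did not overlap each other. The median of the tested members in NC was 6.97 FPKM, beside 4.72 FPKM for all genes tested. In siPOLR1F the same 5 genes came first in the same order, while BCL7B was at rank 6 and BCL7A at rank 17, against ranks 15 and 19 in NC.

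**Figure D4:**
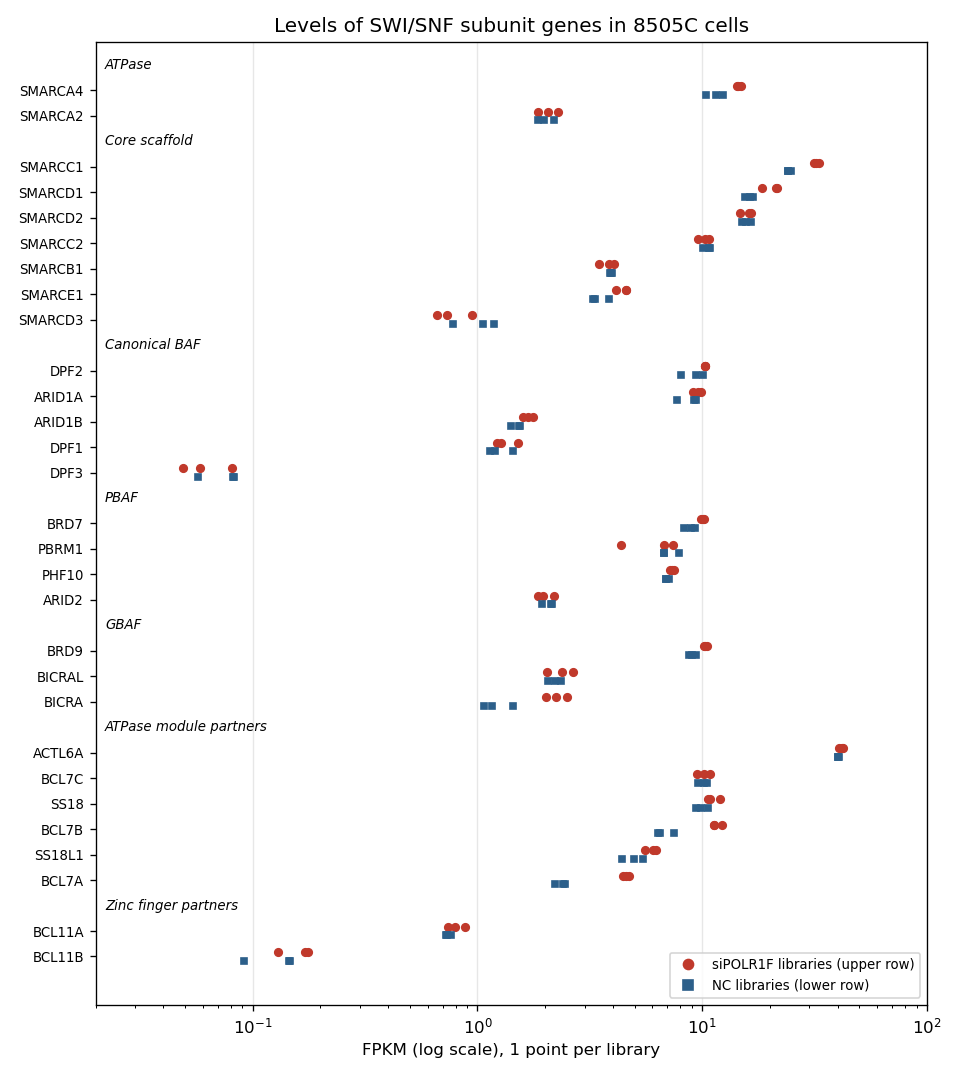
FPKM (x axis, log scale) of the 29 subunit genes in each library, grouped by role and ordered by NC mean; circles in the upper row of each gene are siPOLR1F and squares in the lower row are NC. Levels run from 0.0738 FPKM (DPF3) to 40.4 FPKM (ACTL6A) in the NC mean, and the circles of BCL7A, BCL7B and BICRA lie clear of the squares.

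Summed by role, the ATPase genes were at 16.6, 16.9 and 16.3 FPKM in siPOLR1F, against 12.6, 14.2 and 13.5 FPKM in NC. The scaffold genes were at 83.0, 89.5 and 90.3 FPKM in siPOLR1F, against 74.4, 75.3 and 75.9 FPKM in NC. Sums of the GBAF genes were 15.3, 14.9 and 14.6 FPKM in siPOLR1F, against 12.2, 12.5 and 12.8 FPKM in NC. In these 3 roles the groups did not overlap. Partners of the ATPase module, at 83.5, 84.05 and 87.3 FPKM in siPOLR1F against 72.9, 76.9 and 73.7 FPKM in NC, were also apart. So were the low zinc finger partners, at 0.908, 1.05 and 0.924 FPKM in siPOLR1F against 0.852, 0.878 and 0.871 FPKM in NC. For canonical BAF the sums were 22.3, 22.9 and 23.5 FPKM in siPOLR1F, against 18.5, 21.8 and 21.9 FPKM in NC, also apart but by a narrow gap. For PBAF they were 27.2, 23.3 and 26.3 FPKM in siPOLR1F and 25.1, 25.8 and 24.1 FPKM in NC, with overlap. The ATPase, scaffold, GBAF and ATPase module sums hold genes already called higher, so they repeat those calls in part. How often sums of other genes lie apart was not taken, so no shift of a whole role is read from them.

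Genes of the other remodeller families gave 14 higher and 3 lower of 73 tested, or 19.2% and 4.11%, beside the 10.3% and 6.94% of all genes. Their median log2 fold change was 0.07. The count higher was 7 without siPOLR1F replicate 1 or NC replicate 3, 8 without siPOLR1F replicate 3 and 9 without siPOLR1F replicate 2, and the count lower was 1 without siPOLR1F replicate 2 or 3. Among CHD and NuRD genes, 6 of 18 rose and 1 fell. GATAD2A, a NuRD scaffold (log2 fold change 0.49), and CHD7, the ATPase mutated in CHARGE syndrome (0.77), rose, and MBD2, which binds methylated DNA, was at 6.99 FPKM in siPOLR1F and 13.4 FPKM in NC (-0.93; adjusted p = 8.11e-05 by edgeR). Among ISWI genes, 3 of 12 rose, BAZ1A (0.59), BAZ1B (0.27) and HMGXB4 (0.24), and 1 fell, SMARCA1 (-0.45), an ATPase gene named after its value was seen. Each of these ISWI calls was lost in some alternative, with an adjusted p of up to 0.0883, 0.0822, 0.101 and 0.126 in that order. Of 29 INO80, SRCAP and TIP60 genes, 3 rose and 1 fell, with the ATPase gene INO80 at 0.63, MRGBP at 0.31 and INO80C at -0.36 (adjusted p up to 0.114 over its alternatives). Of 14 other SNF2-type ATPase genes, 2 rose, SMARCAL1 (0.38) and BTAF1 (0.23), and 0 fell. Both of these calls were lost in some alternative, with an adjusted p of up to 0.0628 and 0.102. At an unadjusted p below 0.05, 0 of those 14 were lower by edgeR and limma and 1 by DESeq2, and none of the 14 was called lower by any of these tools. A test of the subunits against these families was not made.

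Both cytoplasmic actin genes were tested and neither passed. ACTB, whose actin is itself a subunit, was at 982 FPKM in siPOLR1F and 901 FPKM in NC (log2 fold change 0.13; adjusted p = 0.116 by edgeR). ACTG1 was at 697 FPKM in siPOLR1F and 751 FPKM in NC (-0.10). Of 5 genes known from other human cells to depend on SWI/SNF (CD44, CSF1, CDKN1A, CDKN2A and CCND1), 1 rose and 0 fell. By the same rule 10.3% of all genes tested were higher and 6.94% lower. The direction in which each of the 5 depends on SWI/SNF was not considered. The gene that rose was CD44, a hyaluronan receptor, at 60.3 FPKM in siPOLR1F and 53.5 FPKM in NC (log2 fold change 0.18; adjusted p = 0.0218 by edgeR; up to 0.0766 over its alternatives). At an unadjusted p below 0.05, edgeR had 1 of the 5 lower, DESeq2 2 and limma 1, and none of the 5 was called lower at an adjusted p below 0.05 by these tools.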

How the data were processed

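Poly(A) RNA of 6 libraries was analysed. The submitters' processing notes name fastp, HISAT2, StringTie and the GRCh38 (hg38) build, without roles; the annotation, strand setting and handling of multiply matched reads were not given in the sources used here. The authors deposited whole-number counts and FPKM per gene and library in 1 table, and both were used as deposited. All libraries carry the same batch label, and every value column matched a sample by its library name. Subunits, lists and tests were chosen with earlier results of these data known.

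Counts were tested with edgeR 4.0.16 in R 4.3.3 (TMM, glmQLFit, glmQLFTest, two-sided) over the 13564 genes averaging 0.5 FPKM or more, which held 99.4% of counts, with Benjamini-Hochberg adjustment over all of them at 0.05. The SE is the log2 fold change divided by the square root of F. The code of the fit was run on simulated counts with a common dispersion for all genes, unlike these data, so that run lends no support to the calls. Any 2 libraries differed by a chi-square of at least 20.4 per degree of freedom, more than counting noise alone gives, so none was treated as the same library deposited again. Levels and paralogue shares were set out in FPKM, per library, with no test. All members were named, with up to 3 genes per other list by smallest adjusted p among those called, or the most abundant where none was. Beyond this rule, SMARCA1, ACTG1, the SWI/SNF-dependent genes and further cell markers were named, SMARCA1 after its value was seen. Alternatives were DESeq2 1.42.0, limma 3.58.1 on log2(FPKM + 1) and log2(FPKM + 0.1), other filters, scalings and dispersions, a replicate block, and leaving out each library. Promoters came from RefSeq (25 of 29 members matched), transcripts from GENCODE release 29, with 3′ UTRs of at least 50 bases; the authors' annotation release was not stated.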

Additional observations from a re-analysis of the deposited data

How the results depend on the processing

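Of the 8 subunit genes called higher, SMARCA4, SMARCC1, BICRA, BCL7A and BCL7B were called in every alternative that gave them a value (BICRA and BCL7A fall below a mean FPKM of 5), and SMARCD1, SMARCE1 and BRD9 lost the call in some. Over 446 values of single members under the alternatives, 18 lost and 6 gained a call and none of the called ones changed sign. Without the expression filter the counts were 5 subunits higher, 7 other remodellers higher and 1 lower, and 663 of all genes higher and 313 lower. Leaving out 1 library gave 5 to 8 subunits higher (0 lower each time), 7 to 14 other remodellers higher and 1 to 2 lower, and 730 to 1326 of all genes higher and 423 to 841 lower; with fewer libraries fewer degrees of freedom remain. Upper-quartile scaling (1114 genes higher, 1475 lower) made 43.0% of all calls higher, against 59.6% with TMM. Shares of counts in place of FPKM, which ignore gene length, moved the gain of BCL7A within its trio to 7.89 percentage points, against 5.13 points in FPKM. The replicate numbers gave correlations of deviations of 0.293, 0.0157 and 0.274 for libraries of the same number, and every library correlated best with its own number. Between numbers 1 and 3 of opposite groups the correlations were -0.277 and -0.275. The main fit took no pairs, and whether replicate numbers mark a shared effect was not tested. With the replicate block, 9 subunits were higher and 0 lower, and 1517 of all genes were higher and 1125 lower. Depth limits DPF3 and BCL11B, with at most 106 counts in any library.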
